A study of Mus musculus with 12 samples.

Results

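The mitochondrial fatty acid oxidation genes described here are 10 mouse genes: Cpt1a, Cpt2, Acadvl, Acadl, Acadm, Acads, Hadha, Hadhb, Etfa and Etfdh. They were taken by gene symbol from the 18194 named genes of an Affymetrix Mouse Genome 430 2.0 array, on which 17 probe sets carried one of these symbols. Each gene was read on its probe set with the highest mean over all arrays. Total RNA of ICR mouse embryos was measured on 12 arrays, 2 for each of 6 groups. One group had been treated with 20 µM U0126, an inhibitor of the kinases MEK1 and MEK2 that activate ERK, and was arrested with 4 cells at day 2.5. Embryos released from that arrest were collected at day 3.5 with 8 cells and at day 4.5 as morulae to blastocysts. Control embryos were collected at day 1.5 with 2 cells, at day 2.5 with 4 to 8 cells and at day 3.5 as morulae to blastocysts. Because the treated embryos had stopped at 4 cells and the day 2.5 controls had reached 4 to 8 cells, inhibitor and stage cannot be told apart in that pair. Whole embryos were measured, so a transcript in fewer of the cells and less of it in each cell cannot be told apart either. A set amount of total RNA was labelled and arrays were normalized by quantiles, so levels are relative to the RNA labelled. They do not give amounts per embryo. A statement of 2 independent experiments is given for the series, with no map of arrays to cultures or animals, so p-values measure only the spread between these samples.

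Mitochondrial fatty acid oxidation breaks fatty acids down to acetyl-CoA inside the mitochondrion. Long-chain acyl groups cross the inner membrane on carnitine, and a dehydrogenase, a hydratase, a second dehydrogenase and a thiolase then shorten the chain by acetyl units in repeated turns. Electrons from the first dehydrogenation pass through the electron transfer flavoprotein to the respiratory chain. In mouse preimplantation embryos the pathway uses stored and taken-up lipid, and inhibiting carnitine palmitoyltransferase is known to impair their development.

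Values are log2(intensity + 1) levels, and differences are on that log2 scale. A level of 5 on at least 2 arrays was required for a gene to be tested. All 10 genes met it, as did 9930 of the named genes. Replicate arrays of a group correlated at 0.955 to 0.980, lowest for U0126 day 2.5, and array medians ran from 10.8 to 11.5 in intensity. Of the embryo markers on the array, 7 of 7 reached the level of 5 on at least 2 arrays, against 0 of 7 for cumulus and granulosa cells, 1 of 5 for oviduct (Ovgp1), 0 of 5 for sperm and 1 of 5 for blood and immune cells (Cd68). A gene was called higher or lower where limma's adjusted p, taken over all genes tested, was under 0.05. Levels of different genes come from different probes and are not set against each other. Comparisons that share a group of arrays are not independent of each other.

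Cpt1a encodes the liver form of carnitine palmitoyltransferase 1, the malonyl-CoA-inhibited outer membrane enzyme that joins long-chain acyl groups to carnitine, and Cpt2 encodes the inner membrane enzyme that moves them back to CoA. The promoters of these genes are shown because they are the members that were higher under U0126. The windows run from 250 bases before to 50 after the start in RefSeq for build GRCm38.p6, at chr19:3323051-3323350 on the plus strand and chr4:107923540-107923839 on the minus strand. Capitals mark matches to the motifs described further on.
Cpt1a: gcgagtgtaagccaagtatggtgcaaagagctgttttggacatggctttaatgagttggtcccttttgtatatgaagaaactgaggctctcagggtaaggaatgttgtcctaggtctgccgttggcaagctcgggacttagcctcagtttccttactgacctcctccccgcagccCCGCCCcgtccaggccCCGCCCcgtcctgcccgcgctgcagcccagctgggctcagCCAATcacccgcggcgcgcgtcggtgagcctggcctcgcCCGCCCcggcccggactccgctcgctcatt
Cpt2: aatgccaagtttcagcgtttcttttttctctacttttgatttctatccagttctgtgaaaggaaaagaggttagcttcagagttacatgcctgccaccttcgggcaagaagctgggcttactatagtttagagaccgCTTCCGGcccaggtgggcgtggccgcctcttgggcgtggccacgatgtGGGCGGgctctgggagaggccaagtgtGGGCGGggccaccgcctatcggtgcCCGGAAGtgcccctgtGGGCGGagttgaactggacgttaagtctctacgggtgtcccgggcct

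Cpt1a was higher in U0126-arrested embryos than in control embryos of the same day. It had levels of 9.28 and 8.61 in U0126 day 2.5 embryos, 7.46 and 7.72 in released day 3.5 embryos and 8.78 and 8.91 in released day 4.5 embryos. In control embryos it had 7.49 and 7.08 at day 1.5, 6.88 and 7.17 at day 2.5 and 9.22 and 8.56 at day 3.5. The 6 groups therefore fell into a high set, namely U0126 day 2.5, released day 4.5 and control day 3.5, whose arrays overlapped, and a low set of the other 3 groups. Under U0126 the difference from day 2.5 controls was 1.91 ± 0.33 (SE, adjusted p = 0.00528), or 3.77-fold. The first day after release brought a lower level, with a difference of -1.35 ± 0.33 (adjusted p = 0.0115) for released day 3.5 minus U0126 day 2.5. That call was lost without U0126 replicate 1 (adjusted p = 0.0706) or released day 3.5 replicate 1 (0.0717). The next day it was higher again by 1.26 ± 0.33 (adjusted p = 0.0298), and in controls day 3.5 exceeded day 2.5 by 1.87 ± 0.33 (adjusted p = 0.00343). When only the 4 arrays of the 2 day 2.5 groups were fitted, the U0126 call was lost (adjusted p = 0.0753). The call for the second day after release was lost when any of its 4 arrays was left out (adjusted p = 0.0749 to 0.164).

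Cpt1a had 3 probe sets, and the one used, 1434866_x_at, has a suffix that Affymetrix gives to sets able to bind other transcripts. Tested by itself, the set 1460409_at differed between U0126 and day 2.5 control embryos by 2.89 (limma, adjusted p = 0.0097 over the 16572 probe sets fitted). Its U0126 arrays were 8.81 and 6.87, and its day 2.5 control arrays were 4.99 and 4.91, both just under the level of 5. The set 1438156_x_at differed by 1.50 (adjusted p = 0.018). All of these sets thus gave the same direction. The second day after release passed for 1434866_x_at alone, the others having adjusted p-values of 0.077 and 0.45.

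Cpt2 had 2 probe sets. The set 1447820_x_at lay under the level of 5 on all arrays and was not tested. It had 3.48 and 3.66 in U0126 day 2.5 embryos, against 3.60 and 3.72 in day 2.5 controls. On the set read, Cpt2 was also higher under U0126 than in the day 2.5 controls, where both of its arrays lay below the level of 5. It had 4.85 and 5.35 in U0126 day 2.5 embryos, 5.98 and 6.36 in released day 3.5 embryos and 8.28 and 8.20 in released day 4.5 embryos. Control embryos had 6.60 and 5.43 at day 1.5, 3.07 and 3.67 at day 2.5 and 7.43 and 6.77 at day 3.5. No array of the day 2.5 controls reached any other group. The fitted U0126 difference was 1.72 ± 0.41 (adjusted p = 0.0217), but since those control arrays lie near background it is given as at least 1.07-fold. In controls, day 2.5 lay at least 2.01-fold below day 1.5 (adjusted p = 3.01e-04), and day 3.5 lay at least 4.29-fold above day 2.5 (adjusted p = 4.96e-04). Released day 3.5 embryos lay at least 2.25-fold above day 2.5 controls (adjusted p = 0.00343), and released day 4.5 embryos were above released day 3.5 embryos by 2.07 ± 0.41 (adjusted p = 0.00999), a call lost without released day 3.5 replicate 1 (0.08) or released day 4.5 replicate 1 (0.0539) or 2 (0.0654). The U0126 call for Cpt2 was lost with no filter on low levels (adjusted p = 0.0553), with a pseudocount of 16 (0.0763, the difference being 0.95), with the mean of all probe sets per gene (0.11), with only the arrays compared (0.0872), and without control day 2.5 replicate 1 (0.144) or U0126 replicate 2 (0.0869).

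**Figure D1:**
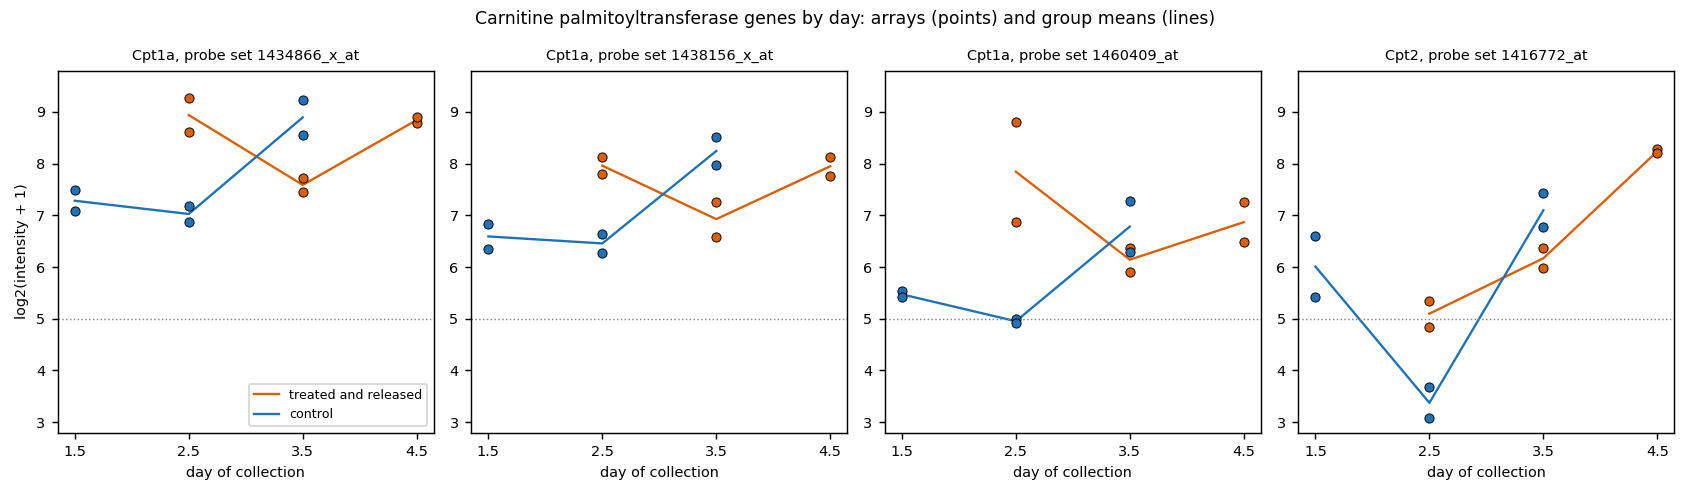
Log2(intensity + 1) levels of the 3 Cpt1a probe sets and of Cpt2, a panel each, against the day of collection, with a point for every array and a line through the group means, for the U0126 and released embryos and for the control embryos. The dotted line marks the level of 5. At day 2.5 all 4 probe sets shown are higher in U0126 embryos. The Cpt1a set 1434866_x_at is then at 9.28 and 8.61 against 6.88 and 7.17 in controls. At day 3.5 it is at 7.46 and 7.72 in released embryos against 9.22 and 8.56 in controls. That difference did not pass (limma, adjusted p = 0.190). The other Cpt2 set, under the level of 5 on all arrays, is not shown.

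The change between these days was then compared between arms, a contrast added after the data had been seen: released day 3.5 minus U0126 day 2.5, less control day 3.5 minus control day 2.5. The arms passed through different stages over this day, so arm and stage step cannot be told apart in it. Cpt1a differed by -3.22 ± 0.46 (adjusted p = 0.0123), being lower after the day in the released arm and higher after it in the controls. Cpt2 had a fitted difference of -2.65 ± 0.58 (adjusted p = 0.0389), but its day 2.5 control arrays lie under the level of 5, and with that group set at 5 the difference is -1.03, for a change of 1.07 in the released arm against at least 2.10 in controls. These were 2 of 10 members called, both lower, against 3% of all genes tested (1.99% lower), and the Cpt2 call was lost in 14 of 20 alternatives (adjusted p = 0.0538 to 0.152). Without control day 3.5 replicate 1 the Cpt1a call was lost as well (adjusted p = 0.0657). Over all genes this contrast gave 100 higher and 198 lower, and 156 higher and 140 lower after centring, which shifts every difference of it by 0.22. The other Cpt1a probe sets gave -2.82 and -3.53 (limma, adjusted p = 0.024 and 0.048). The second value is for 1460409_at, whose day 2.5 control arrays lay just under the level of 5.

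Slc25a20, the carrier that exchanges acylcarnitine for carnitine across the inner membrane, was not called under U0126. Its levels were 11.79 and 11.98 in U0126 day 2.5 embryos, against 12.16 and 12.23 in day 2.5 controls (difference -0.31, adjusted p = 0.558). In released embryos it was lower at day 4.5, with 11.16 and 10.79, than at day 3.5, with 12.52 and 12.67 (difference -1.62, adjusted p = 0.00704). Acacb, whose product makes the malonyl-CoA that inhibits carnitine palmitoyltransferase 1, stayed between 5.03 and 5.51 on all 12 arrays, and no comparison called it.

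The acyl-CoA dehydrogenases begin each turn of the spiral, and each acts on a range of chain lengths: very long for Acadvl, long for Acadl, medium for Acadm and short for Acads. Acadvl and Acadl were lower under U0126 than in day 2.5 controls, and every dehydrogenase was higher in day 2.5 than in day 1.5 controls. The promoter of Acadl is shown because it had the largest difference of the members, at chr1:66863260-66863559 on the minus strand of GRCm38.p6.
Acadl: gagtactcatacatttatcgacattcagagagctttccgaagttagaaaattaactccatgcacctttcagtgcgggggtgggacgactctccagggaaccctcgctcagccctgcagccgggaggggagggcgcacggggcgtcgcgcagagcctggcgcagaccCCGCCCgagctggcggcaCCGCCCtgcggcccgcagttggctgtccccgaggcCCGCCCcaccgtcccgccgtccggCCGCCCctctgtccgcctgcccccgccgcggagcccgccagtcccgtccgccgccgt

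Acadl had 10.45 and 10.82 in U0126 day 2.5 embryos, 11.22 and 11.61 in released day 3.5 embryos and 12.11 and 11.87 in released day 4.5 embryos. Control embryos had 4.96 and 4.33 at day 1.5, 12.04 and 11.80 at day 2.5 and 11.78 and 11.64 at day 3.5. On the set read, only the 2-cell arrays lay near background, and the U0126 arrays lay below all other groups but that one. The step between control days 1.5 and 2.5 was at least 121-fold (adjusted p = 1.11e-07), a fitted difference of 7.28 ± 0.30. U0126 embryos were lower than day 2.5 controls by a difference of -1.28 ± 0.30 (limma, adjusted p = 0.0187). They remained above day 1.5 controls by at least 49.8-fold (adjusted p = 6.24e-07). The call against day 2.5 controls was lost with only the arrays compared (limma, adjusted p = 0.0947). With the mean of all probe sets it was lost as well (difference -0.57, adjusted p = 0.0935). That mean takes in the other Acadl set, 1448988_at, which lay between 2.68 and 3.22 on all arrays. The U0126 call was lost without control day 2.5 replicate 1 (adjusted p = 0.117) or 2 (0.0602) or U0126 replicate 1 (0.0927).

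Acadvl had 6.36 and 6.11 in U0126 day 2.5 embryos, 8.59 and 8.96 in released day 3.5 embryos and 10.35 and 9.78 in released day 4.5 embryos. Control embryos had 3.75 and 3.81 at day 1.5, 8.08 and 7.26 at day 2.5 and 9.91 and 8.99 at day 3.5. U0126 embryos lay between the 2-cell and day 2.5 controls with no overlap, and the released day 4.5 and control day 3.5 arrays overlapped. U0126 embryos differed from day 2.5 controls by -1.44 ± 0.38 (adjusted p = 0.0333), and they exceeded day 1.5 controls by at least 2.35-fold (adjusted p = 3.86e-04). The first day after release brought 2.54 ± 0.38 more (adjusted p = 0.00110), the largest gain of the members over that day, and the second day 1.29 ± 0.38 more (adjusted p = 0.0481). In controls the first step was at least 6.37-fold (adjusted p = 1.24e-05) and the second a difference of 1.78 ± 0.38 (adjusted p = 0.00903). The U0126 call was lost without a filter (adjusted p = 0.0703), with only the arrays compared (0.11), and without control replicate 1 (0.218) or U0126 replicate 1 (0.0788) or 2 (0.105). The second day after release was lost without any of its 4 arrays (0.0947 to 0.239), any U0126 array (0.0518) or any day 1.5 control array (0.0632), and the second control step without control day 2.5 replicate 2 (0.0757) or day 3.5 replicate 1 (0.0972).

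Acadm was lowest in 2-cell embryos and varied little from day 2.5 on. It had 10.58 and 10.45 in U0126 day 2.5 embryos, against 11.40 and 11.10 in day 2.5 controls, which did not overlap, and the difference of -0.74 ± 0.29 did not pass (adjusted p = 0.117). Released embryos had 11.33 and 10.75 at day 3.5 and 11.43 and 11.35 at day 4.5, beside 11.23 and 10.95 in day 3.5 controls. The U0126 embryos were higher by 1.50 ± 0.29 (adjusted p = 0.00138), and the day 2.5 controls by 2.24 ± 0.29 (adjusted p = 7.40e-05), than day 1.5 controls, which had 9.22 and 8.80. Acads was close to the level required on many arrays, between 4.40 and 6.51 throughout. Its arrays overlapped in 7 of the 10 pairs of groups compared, and its one call, 1.20 ± 0.43 for control day 2.5 minus day 1.5 (adjusted p = 0.0356), was lost without control day 1.5 replicate 2 (0.281) or day 2.5 replicate 1 (0.215).

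Hadha and Hadhb encode the alpha and beta subunits of the trifunctional protein, which carries the hydratase, 3-hydroxyacyl-CoA dehydrogenase and thiolase activities for long chains. Their genes lie head to head on chromosome 5, with starts 273 bases apart in RefSeq, so that their promoter windows share 228 bases, chr5:30155003-30155230. The Hadhb window, chr5:30155003-30155302 on the plus strand of GRCm38.p6, is shown because it covers this shared stretch.
Hadhb: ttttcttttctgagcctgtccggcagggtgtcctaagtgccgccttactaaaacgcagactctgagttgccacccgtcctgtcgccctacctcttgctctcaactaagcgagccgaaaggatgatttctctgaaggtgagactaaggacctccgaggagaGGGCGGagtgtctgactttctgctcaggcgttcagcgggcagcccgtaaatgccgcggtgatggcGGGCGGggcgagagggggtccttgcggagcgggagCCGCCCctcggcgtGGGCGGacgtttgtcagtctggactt

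Hadhb stayed within a narrow range, with 11.24 and 11.74 in U0126 day 2.5 embryos, 11.56 and 12.06 in released day 3.5 embryos and 11.94 and 12.12 in released day 4.5 embryos. Control embryos had 11.99 and 11.36 at day 1.5, 11.76 and 11.82 at day 2.5 and 12.45 and 12.15 at day 3.5. The set read for Hadhb also has the suffix of sets able to bind other transcripts. No comparison called Hadhb on any of its 3 probe sets, and its U0126 difference was -0.30 (95% interval -0.99 to 0.38, adjusted p = 0.587).

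Hadha had 5.64 and 3.59 in U0126 day 2.5 embryos, 6.23 and 5.27 in released day 3.5 embryos and 7.14 and 5.64 in released day 4.5 embryos. Control embryos had 4.51 and 3.90 at day 1.5, 5.71 and 5.06 at day 2.5 and 6.85 and 5.39 at day 3.5. Replicate 1 lay above replicate 2 in 6 of 6 groups, by 0.61 to 2.05, and arrays overlapped in 8 of the 10 pairs of groups compared. Its one call was control day 3.5 above day 1.5, at least 2.17-fold (adjusted p = 0.0400), which was lost without control day 1.5 replicate 1 (0.0738) or 2 (0.179) or day 3.5 replicate 1 (0.271). For U0126 minus day 2.5 controls the 95% interval reached from -2.39 to 0.85. On its single probe set the standard error of a Hadha difference was 0.73, beside 0.29 to 0.43 for the other members. With the replicate number as a block, Hadha also passed for control day 2.5 against day 1.5 (limma, adjusted p = 0.0150). It passed as well for released day 3.5 against U0126 (0.0311). No label ties that number to an experiment.

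Etfa encodes the alpha subunit of the electron transfer flavoprotein, which takes electrons from the acyl-CoA dehydrogenases, and Etfdh encodes the ubiquinone oxidoreductase that passes them to the respiratory chain. The group means of both were larger at each later day within each arm, and 4 of 4 such steps passed the test for Etfa and 2 of 4 for Etfdh. Etfa had 9.95 and 9.91 in U0126 day 2.5 embryos, 11.10 and 11.06 in released day 3.5 embryos and 12.22 and 12.23 in released day 4.5 embryos. Control embryos had 9.38 and 8.78 at day 1.5, 10.46 and 10.14 at day 2.5 and 11.80 and 11.32 at day 3.5. No 2 groups overlapped. The first day after release brought 1.15 ± 0.29 (adjusted p = 0.0135) and the second 1.14 ± 0.29 (adjusted p = 0.0261), next to 1.22 ± 0.29 (adjusted p = 0.00409) and 1.27 ± 0.29 (adjusted p = 0.0117) for the 2 control steps. The call for the second day after release was lost without any of its arrays in turn (adjusted p = 0.0995 to 0.139). The call for the first was lost without released day 3.5 replicate 1 (0.0643) or 2 (0.0603), and that for the second control step without control day 2.5 replicate 2 (0.083) or day 3.5 replicate 1 (0.113).

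Etfdh had 5.87 and 6.37 in U0126 day 2.5 embryos, 6.94 and 7.22 in released day 3.5 embryos and 8.62 and 8.51 in released day 4.5 embryos. Control embryos had 5.15 and 3.65 at day 1.5, 6.21 and 6.43 at day 2.5 and 7.49 and 7.08 at day 3.5. The U0126 and day 2.5 control arrays overlapped (difference -0.20, adjusted p = 0.827). Control day 2.5 exceeded day 1.5 by 1.92 ± 0.43 (adjusted p = 0.00294), and released day 4.5 exceeded released day 3.5 by 1.48 ± 0.43 (adjusted p = 0.0439). The latter call was lost without a filter (limma, adjusted p = 0.0992) and with the mean of all probe sets (difference 0.75, adjusted p = 0.0854). That mean takes in the other Etfdh set, 1458152_at, which lay between 2.84 and 3.21 on all arrays. The call was also lost without any of the 4 arrays compared or any of the day 2.5 or 3.5 control arrays. Etfb, which encodes the beta subunit of the flavoprotein, had 7.23 and 7.35 in U0126 day 2.5 embryos, against 7.89 and 7.42 in day 2.5 controls (difference -0.36, adjusted p = 0.464), and it was higher by 1.99 (adjusted p = 9.24e-04) the first day after release and by 1.35 (adjusted p = 0.0136) the second.

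**Figure D2:**
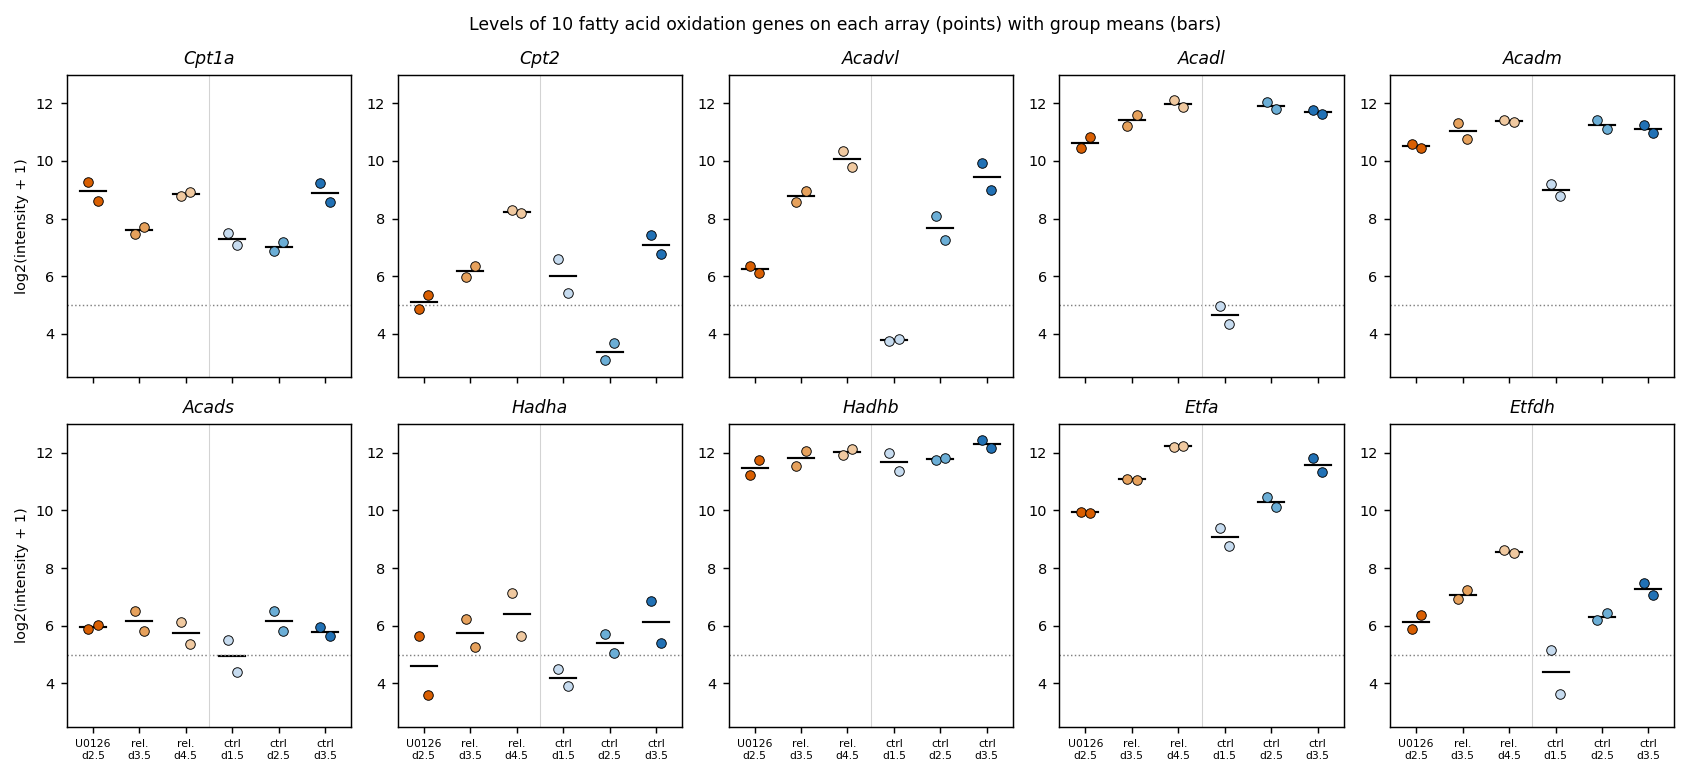
Log2(intensity + 1) levels of the 10 genes, a panel each, with a point for each of the 2 arrays of every group and a bar at the group mean. The dotted line marks the level of 5, groups run from U0126 day 2.5 and the released days at the left to the 3 control days at the right, and levels may be compared within a panel only. The 2-cell arrays of Acadl (4.96 and 4.33) stand far below its other arrays, while Hadhb stays between 11.24 and 12.45.

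Counted over the members, U0126 against day 2.5 controls gave 4 of 10 called, with Cpt1a and Cpt2 higher and Acadvl and Acadl lower, beside 13.9% of all genes tested (9.21% higher and 4.72% lower). The median difference of the members was -0.33, beside 0.11 for all genes tested. After each array was centred on its median, which shifted every difference by -0.21, these became -0.54 and -0.09, Acadm was called as well, and the 1384 calls over all genes, 915 higher and 469 lower, became 1177, with 553 higher and 624 lower. Fitted on the 4 arrays compared alone, limma called 0 of 10 members, with 5 at an unadjusted p under 0.05, and 0 of all genes, with 2245 at an unadjusted p under 0.05.

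In controls, day 2.5 against day 1.5 gave 7 of 10 members called, 6 higher and Cpt2 lower, beside 55.4% of all genes (28% higher and 27.4% lower). Day 3.5 against day 2.5 gave 4 of 10, all higher (Cpt2, Cpt1a, Acadvl and Etfa), beside 21.6% of all genes (13.4% higher). Centring changed the split over all genes here to 963 higher and 1160 lower, from 1326 and 822 without it. The median member difference was 0.85, beside 0.09 for all genes. Over the whole control span, day 3.5 against day 1.5, 8 of 10 members were higher and none lower, beside 64% of all genes called in either direction (35.1% higher). Acadl was higher by at least 105-fold (adjusted p = 5.23e-08) and Acadvl by at least 21.9-fold (adjusted p = 6.96e-07), and Acads and Hadhb did not pass. The Cpt2 difference of 1.09 ± 0.41 (adjusted p = 0.0383) was lost without control day 1.5 replicate 2 (0.314), control day 3.5 replicate 1 (0.227) or either released day 4.5 array (0.0523), and with centring (0.068).

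U0126 embryos against day 1.5 controls gave 6 of 10 higher, beside 50.1% of all genes in either direction (28.1% higher). These were Acadl, Acadvl, Cpt1a, Acadm, Etfdh and Etfa. The Etfa difference of 0.85 ± 0.29 (adjusted p = 0.0297) was lost with centring (0.0595) and without control day 1.5 replicate 2 (0.183) or U0126 replicate 1 (0.0905) or 2 (0.0708). Cpt2 had a smaller mean in U0126 embryos without passing (difference -0.91 ± 0.41, adjusted p = 0.0892).

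The first day after release, released day 3.5 against U0126 day 2.5, gave 3 of 10 called, beside 28.2% of all genes (13.7% higher and 14.5% lower): Acadvl and Etfa higher and Cpt1a lower. The second day, released day 4.5 against released day 3.5, gave 5 of 10, all higher (Cpt2, Cpt1a, Acadvl, Etfdh and Etfa), beside 13.7% of all genes (7.37% higher). Leaving out 1 array of that pair at a time, which leaves a single array in its group, lost nearly all of these calls. No share over all genes stands beside that loss, so it is not read as particular to the members. Members' medians over these days were 0.87 and 0.89, beside -0.02 and -0.04 for all genes.

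Released embryos at day 3.5 against day 2.5 controls gave 1 of 10 called, Cpt2, which was higher, beside 12.7% of all genes (8.61% higher). Over all genes these calls were 855 higher and 402 lower, and 607 higher and 586 lower after centring. Against day 3.5 controls limma called 0 of 10, beside 0.312% of all genes called. At an unadjusted p under 0.05 there were 2 members (Cpt1a and Cpt2), a count with no share over all genes beside it. The Cpt1a arrays did not overlap there, with 7.46 and 7.72 in released embryos against 9.22 and 8.56 in controls (difference -1.31 ± 0.33, adjusted p = 0.190). Released day 4.5 against day 3.5 controls, both at morula to blastocyst, gave 0 of 10 called by limma, beside 5.88% of all genes called. At an unadjusted p under 0.05 there were 3 members (Etfdh, Cpt2 and Etfa), again with no share over all genes beside them. Etfdh differed by 1.28 ± 0.43 (adjusted p = 0.114), Cpt2 by 1.14 ± 0.41 (adjusted p = 0.142), and Cpt1a by -0.05 with a 95% interval of -0.77 to 0.67. Whether the last stage step differed between arms was tested directly, and limma called 0 of 10, beside 2.34% of all genes called. At an unadjusted p under 0.05 there was 1 member (Cpt2, adjusted p = 0.164), again with no share over all genes beside it. The fitted Cpt2 difference of -1.66 rests on day 2.5 control arrays near background and is -0.03 with that group set at the level of 5. Over all genes that test gave 101 higher and 131 lower, and 141 higher and 110 lower after centring.

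**Figure D3:**
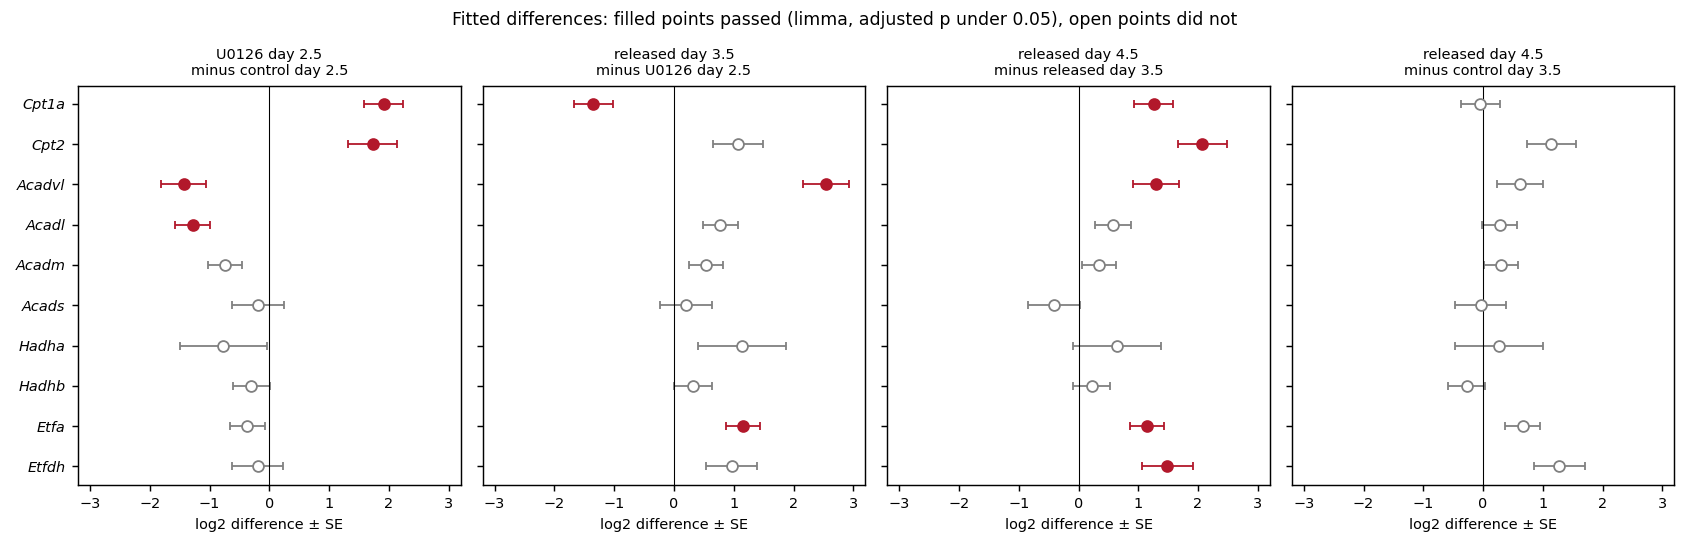
Fitted log2 differences of the 10 genes with standard errors in 4 comparisons, one per panel, with filled points where limma's adjusted p was under 0.05. Cpt1a stands at 1.91, -1.35 and 1.26 in the first 3 panels, Acadvl at -1.44, 2.54 and 1.29, and no point is filled for released day 4.5 minus control day 3.5.

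Across the 12 arrays the levels of members correlated positively in 44 of 45 pairs, with a median Pearson r of 0.569 and 9 pairs above 0.8. These values describe arrays that share the groups and stages and carry no test. Acadl and Acadm had the highest (0.963), Etfa and Etfdh reached 0.961, and Cpt2 and Acads had the lowest (-0.188). Of all genes tested, those most like Cpt1a over the 12 arrays were Samd8 (r = 0.918), Plpp6 (0.905) and Klf15 (0.904). Plpp6 and Klf15 averaged 4.39 and 4.47 in day 1.5 controls and 4.02 and 4.19 in day 2.5 controls. Plpp6 averaged 4.73 in released day 3.5 embryos. These means lie under the level of 5, so both patterns rest in part on signal near background. The genes most like Hadha were Renbp (0.959), Bag3 (0.945) and Tecr (0.939).

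**Figure D4:**
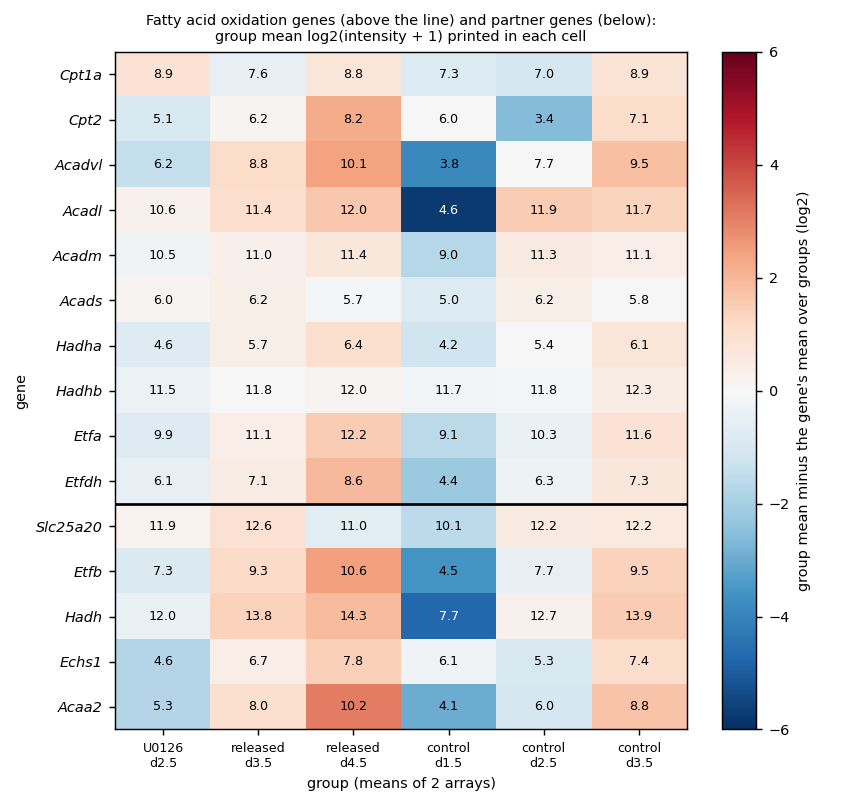
Mean log2(intensity + 1) level of the 10 genes and of Slc25a20, Etfb, Hadh, Echs1 and Acaa2 in each of the 6 groups, less the gene's mean over the groups, shown by colour with the group mean printed in each cell. Acadl and Acadvl are lowest at control day 1.5, and Cpt1a is high in U0126 day 2.5, released day 4.5 and control day 3.5 embryos, at 8.94, 8.84 and 8.89.

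The rest of the mitochondrial spiral was read from a list of 24 genes, of which 23 were tested. U0126 embryos had 2 of these higher and 3 lower than day 2.5 controls, with a median of -0.15, beside 13.9% of all genes called. Day 2.5 controls had 13 higher and 5 lower than day 1.5 controls, beside 55.4% of all genes. Pcca was among those lower, with 6.43 and 6.44 at day 1.5 and 3.08 and 3.95 at day 2.5, under the level of 5. Day 3.5 controls had 15 higher and 5 lower than day 1.5 controls, beside 64% of all genes. Eci1 was among those lower, with 8.43 and 8.51 at day 1.5 and 5.35 and 5.95 at day 3.5. The first day after release had 10 higher and 2 lower, with a median of 1.21, beside 28.2% of all genes called and a median of -0.02. Eci2, an enoyl-CoA isomerase that handles unsaturated chains, was the most reduced under U0126, with 5.41 and 4.81 against 7.16 and 7.09 in day 2.5 controls (difference -2.01, adjusted p = 0.00480, and 0.0674 with only the arrays compared).

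Hadh, the medium- and short-chain 3-hydroxyacyl-CoA dehydrogenase, had 11.87 and 12.12 in U0126 day 2.5 embryos, against 12.54 and 12.83 in day 2.5 controls (difference -0.69, adjusted p = 0.194). It was higher by 4.97 in day 2.5 than in day 1.5 controls (adjusted p = 9.02e-07) and by 1.81 the first day after release (adjusted p = 0.00259). Echs1, the short-chain hydratase, was higher by 2.16 (adjusted p = 0.0110) over that day, and Acaa2, a thiolase, by 2.75 (adjusted p = 0.0132). The U0126 arrays were 5.26 and 3.90 for Echs1 and 4.25 and 6.34 for Acaa2. These sizes therefore rest in part on signal near background. Neither differed from day 2.5 controls under U0126 past the threshold (adjusted p = 0.379 for Echs1 and 0.530 for Acaa2).

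The carnitine shuttle and acyl-CoA activation list had 12 genes tested. Under U0126 it had 0 higher and 0 lower than day 2.5 controls by limma, beside 13.9% of all genes called, and released day 4.5 embryos had 5 higher and 2 lower than released day 3.5 embryos, beside 13.7%. Slc22a5, the plasma membrane carnitine transporter, had the largest gain of the list. It had 11.20 and 11.72 in released day 4.5 embryos, against 5.95 and 6.85 in released day 3.5 embryos (difference 5.06 ± 0.52, adjusted p = 4.96e-04), and exceeded day 3.5 controls, with 7.61 and 6.23, by 4.54 (adjusted p = 0.00149). Acss1, a mitochondrial acetyl-CoA synthetase, was higher by 4.00 over the same day and Acsl5, a long-chain acyl-CoA synthetase, by 3.43, whereas Acsl4, another of these synthetases, was lower (difference -3.23). Acss1 and Acsl5 averaged 3.16 and 4.67 in released day 3.5 embryos, under the level of 5, so their fitted sizes rest on signal near background.

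Among regulators, Ppara, a nuclear receptor for fatty acids that activates many of these genes in liver, and its coactivator Ppargc1a stayed below the level of 5, with highest arrays of 3.24 and 3.41, and were not tested. Ppargc1b, a related coactivator, had 4.15 and 4.52 in U0126 day 2.5 embryos, against 4.43 and 3.76 in day 2.5 controls, all below that level. It had 7.13 and 7.98 in released day 3.5 embryos, a fitted difference of 3.22 from U0126 embryos (adjusted p = 2.40e-04), and 8.03 and 8.08 in day 3.5 controls, a fitted difference of 3.96 from day 2.5 controls (adjusted p = 1.91e-04). Since both earlier groups lie below the level of 5, these fitted sizes rest on signal near background. The regulator list of 22 tested genes had 3 higher and 2 lower under U0126 than in day 2.5 controls, beside 13.9% of all genes called, and 3 higher and 5 lower the first day after release, beside 28.2%.

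The results of 6 motifs are given, searched on both strands in all 10 promoter windows and in 32851 windows of the same length. The GC box GGGCGG was in 7 of 10 member windows and in 35.7% of all windows, and the CCAAT box CCAAT in 3 of 10 (Cpt1a, Etfa and Etfdh) and 37.4%. The only GC box of the Hadha window is the same site as a GC box of the Hadhb window, in the stretch they share. The ETS core CCGGAAG was in the Cpt2 window, and in 8.86% of all windows. No member window held the estrogen-related receptor site TCAAGGTCA (0.423% of all windows), the cAMP response element TGACGTCA (1.79%) or the E-box CACGTG (7.15%). No matches overlapped in member windows. A PPAR-RXR repeat and an NRF1 element were searched as well, and their results are not given here.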

How the data were processed

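Total RNA of embryos was labelled in 2 rounds from 0.1 µg and hybridised to Mouse Genome 430 2.0 arrays, per the labels' protocols and the design text. The authors deposited an intensity for each probe set on a linear scale, made with GCRMA per the submitters' processing notes. GCRMA corrects background, normalizes arrays by quantiles and summarizes probes, which bears most on small values. The design text also names GCOS 1.2 and GeneSpring 7.3, with no record here of the steps run in them. The absolute unit is therefore arbitrary. Of 45101 probe sets, 34958 had 1 gene symbol, 932 several and 9211 none, and only the first were named. Intensities were taken as log2(intensity + 1) with no further normalization, and each gene was read on the probe set with the highest mean. The test took genes that reached a level of 5 on 2 or more arrays. All 12 arrays entered 1 limma 3.58.1 fit (R 4.3.3) with a mean per group, with 6 residual degrees of freedom and 4.51 from the prior, and p-values were adjusted by Benjamini-Hochberg over 9930 genes. A group with both arrays under 5 was set at 5 to give an "at least" fold. The number of arrays limits the precision: the median standard error of a difference was 0.348. The code was tested on simulated data. Named genes were all members, listed partners, and for each wider list some of the up to 3 called genes with the largest rise and fall. Of the genes so chosen, Acaa1b, Pecr, Prkaa1, Gabpa, Esrrb and Bdh1 are not described. The members, lists and tests were chosen with earlier results of these data known. Promoters are from RefSeq, GRCm38.p6, matched for 10 of 10 members. The contrast between arms over days 2.5 to 3.5 and the fit of each probe set by itself were added after the data had been seen. Alternatives were another pseudocount, filter, probe set rule, median centring, the replicate number as a block, a prior variance that depends on mean level, only the arrays compared, and each array left out.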

Additional observations from a re-analysis of the deposited data

Results flagged for a closer look

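For 2 genes the change from day 2.5 to day 3.5 differed between arms by a test of the difference itself. The test was added after the data had been seen. Arm and stage step cannot be told apart in it, because the arms passed through different stages over that day. For Cpt1a, released day 3.5 minus U0126 day 2.5, less control day 3.5 minus control day 2.5, was -3.22 (limma, adjusted p = 0.0123), and for Cpt2 it was -2.65 (limma, adjusted p = 0.0389). The Cpt2 value rests on day 2.5 control arrays near background, is -1.03 with that group set at the level of 5, and lost its call in 14 of 20 alternatives. Cpt1a was lower over the day in the released arm on both arrays and higher over it in controls. The other 8 members did not pass that test.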

How the results depend on the processing

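Over 12 comparisons, 40 of the 120 member differences were called, and 20 of these held under each of 20 alternatives, while 0 reversed. Of the 80 differences not called, 14 passed under some alternative. Members called for U0126 against day 2.5 controls numbered 4, but 2 with no filter, 2 with the mean of all probe sets per gene and 0 with only the arrays compared. For released day 3.5 against day 2.5 controls the 1 became 3 with the replicate block, for released day 4.5 against day 3.5 controls the 0 became 1 with a pseudocount of 16, and for the first day after release the 3 became 1 with only the arrays compared. For the second day after release the 5 became 3 with no filter and 3 with the mean of all probe sets, and for the difference between arms over days 2.5 to 3.5 the 2 became 1 under each of no filter, a pseudocount of 16, the mean of all probe sets and only the arrays compared. Leaving out each array in turn gave 1 to 4 members for U0126 against day 2.5 controls, 2 to 5 for control day 3.5 against day 2.5, 1 to 5 for the first day after release, 0 to 4 for the second, 0 to 1 for released day 4.5 against day 3.5 controls and 0 to 2 for the difference between arms. The causes of these moves were not tested, except that fewer arrays enter when only those compared or all but 1 are fitted. Calls over all genes moved with the setting too, as given above for centring and for the day 2.5 groups fitted alone. The counts here have no share over all genes beside them and are not read as particular to the members. Arrays of the same number deviated together (r of replicate 1 minus replicate 2 between groups from 0.125 to 0.417 over 15 pairs of groups), but with 2 numbers and no label that ties them to an experiment they are taken to share only a number. With the replicate block, 5 members were called for U0126 against day 2.5 controls. The block also brought Hadha past the threshold for control day 2.5 against day 1.5 (adjusted p = 0.0150) and released day 3.5 against U0126 (0.0311). Signal near background limits the comparisons with groups whose arrays were both under the level of 5. These were day 1.5 controls for Acadvl, Acadl and Hadha and day 2.5 controls for Cpt2. It also limits those with 1 array under that level. These were day 1.5 controls for Etfdh and Acads and U0126 embryos for Hadha and Cpt2.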

Other observations

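Of 19 genes tested for lipid droplets, lipolysis and uptake, 1 was higher and 0 lower under U0126 than in day 2.5 controls by limma (median difference 0.19), beside 13.9% of all genes called, and 8 were higher and 5 lower in day 3.5 than in day 1.5 controls, beside 64%. The genes named here are among those called with the largest differences. Lpl was lower in day 2.5 controls, with 4.11 and 4.15, than in day 1.5 controls, with 8.99 and 9.45. That lower group lay under the level of 5. Fabp3, a cytosolic fatty acid-binding protein, had 14.06 and 13.50 in released day 4.5 embryos and 11.29 and 11.48 in released day 3.5 embryos, while control embryos had 4.41 and 3.93 at day 1.5 and 11.90 and 11.07 at day 3.5 (fitted difference 7.32 over the control span). Slc27a2, a very long-chain acyl-CoA synthetase and fatty acid transporter, had 8.26 and 9.26 in released day 3.5 embryos, against 4.75 and 5.29 in day 3.5 controls (difference 3.75, limma adjusted p = 0.0234), a call lost without a filter (0.149) and without any array of this pair (0.0565 to 0.328) or of day 1.5 controls (0.063). Cidea, a lipid droplet protein, was higher by 3.68 in day 3.5 than in day 1.5 controls, whereas Cd36, a fatty acid transporter, was lower (difference -4.63). The lower group of each of these 2 contrasts, and of Fabp3, lay under the level of 5, so the sizes rest on signal near background.

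Oxct1, which activates ketone bodies for oxidation, had 6.10 and 7.16 in U0126 day 2.5 embryos, against 9.68 and 9.45 in day 2.5 controls (difference -2.94, limma adjusted p = 0.00206, and 0.0668 with only the arrays compared). Peroxisomal oxidation genes had 2 of 13 tested higher and 0 lower under U0126 than in day 2.5 controls by limma, beside 9.21% of all genes called higher. Hsd17b4, the peroxisomal multifunctional enzyme, was higher by 3.59 in day 3.5 than in day 1.5 controls and Crot, a peroxisomal carnitine acyltransferase, by 3.08. Esrrg, an estrogen-related receptor, was lower over the same span, where it ended near background (difference -5.79), and Tfam, a mitochondrial transcription factor, was higher by 3.43.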
